A study of Homo sapiens with 12 samples.

Results

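The 10 complement genes described here were followed in LACTB KO and WT iMGLs: the 3 chains of C1q (C1QA, C1QB and C1QC), the serine protease C2, the central component C3, the protease CFD (complement factor D), the anaphylatoxin receptors C3AR1 and C5AR1, and the alpha and beta chains of complement receptor 3, ITGAM and ITGB2. Members were taken from the deposited count table by an exact match of the gene symbol, which found 10 of the 62703 genes listed, and all 10 passed the filter on low counts. The line edited was WTC11, a widely used human iPSC line, and iMGLs resemble microglia and are grown from it by way of hematopoietic precursors. WT was represented by clones J, K and L and the knockout by clones A, B and C, every clone having been isolated after CRISPR editing with non-homologous end joining. Each clone was differentiated 2 times (differentiation 1 and differentiation 2), which gave 12 bulk libraries, 6 per genotype. Both genotypes received IL34 (100 ng/ml), TGFb (50 ng/ml) and MCSF (25 ng/ml), then also CX3CL1 and CD200 (100 ng/ml each) from day 24 until collection on day 27 according to the sample labels, and no other treatment. The cells were cultured without added neurons or astrocytes, and each clone is 1 edited line. Transcripts of stromal and hepatocyte marker lists were present and are given below.

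Complement is a cascade of plasma proteins that tags cells, debris and synapses. C1q starts the classical pathway, in which C2 forms part of the protease that cleaves C3, and CFD serves the same step in the alternative pathway. Fragments of C3 and C5 act through C3AR1 and C5AR1, and the dimer of ITGAM and ITGB2 binds C3 deposited on targets. In the brain, C1q is made mainly by microglia, and this route is known from the engulfment of synapses.

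The C1q genes lie side by side on the plus strand of chromosome 1 (GRCh38, GENCODE version 44): C1QA at chr1:22635077-22639678, C1QC at chr1:22643014-22648110 and C1QB at chr1:22652762-22661637. ITGAM lies at chr16:31259967-31332892 (plus strand), ITGB2 at chr21:44885953-44931989 (minus) and C2 at chr6:31897785-31945673 (plus). C3 lies at chr19:6677704-6730562 (minus), CFD at chr19:859453-867884 (plus), C5AR1 at chr19:47290023-47322066 (plus) and C3AR1 at chr12:8056844-8066359 (minus). Sequence upstream of the RefSeq start (GRCh38.p14), from 250 to 51 bases before it, is printed for C1QA and C1QB, 2 of the C1q chains of 1 gene cluster, and for ITGAM, the receptor chain from another chromosome. The C1QA and C1QB stretches lie inside the annotated gene but in no exon, that is, in introns of transcripts that start further upstream, and the ITGAM stretch ends before the annotated gene. Capitals mark a match to CCAAT (the CCAAT box) in C1QA, to TGCTGA (a MAF element) in C1QB, and to GAGGAA (the PU.1 core) in ITGAM.
C1QA, chr1:22636213-22636412, plus strand: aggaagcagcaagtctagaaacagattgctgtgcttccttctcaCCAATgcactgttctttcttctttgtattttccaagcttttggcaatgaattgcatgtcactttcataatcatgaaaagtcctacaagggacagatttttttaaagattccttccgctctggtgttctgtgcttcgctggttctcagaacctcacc
C1QB, chr1:22652986-22653185, plus strand: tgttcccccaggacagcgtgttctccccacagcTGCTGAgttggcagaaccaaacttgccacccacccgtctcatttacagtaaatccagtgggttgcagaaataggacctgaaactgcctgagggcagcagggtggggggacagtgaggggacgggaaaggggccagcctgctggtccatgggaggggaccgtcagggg
ITGAM, chr16:31259725-31259924, plus strand: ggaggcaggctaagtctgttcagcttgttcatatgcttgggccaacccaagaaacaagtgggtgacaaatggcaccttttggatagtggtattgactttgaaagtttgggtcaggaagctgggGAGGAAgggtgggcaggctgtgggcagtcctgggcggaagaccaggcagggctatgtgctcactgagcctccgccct
The 3 motifs were searched on both strands, with overlaps between motifs allowed, together with TATAAA on the gene strand. They were searched in 300-base windows from 250 before to 50 after each start, of which RefSeq gave 9 for 7 of the members. CCAAT was found in 34.6% of all 35093 windows, TGCTGA in 17.3%, GAGGAA in 27.9% and TATAAA in 7.332%. Among the members, CCAAT was found in C5AR1 and in both C1QA windows, which overlap each other, and TGCTGA in the second C1QA window, in C1QB and in C3AR1. GAGGAA was found in ITGAM and C5AR1, and TATAAA in C3AR1. Windows for C1QC, C3 and ITGB2 were not used here. These matches are descriptions of the letters in the windows.

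LACTB, the edited gene, was between 71.6 and 98.1 CPM (counts scaled to library size with TMM factors) in the 6 WT libraries (median 77.5). It was between 7.49 and 9.78 CPM in the libraries of LACTB KO clones A and C, and at 44.4 and 51.6 CPM in those of clone B. The libraries labelled LACTB KO were thus all below WT, but clone B by much less than A and C. These are levels of RNA and do not give the protein. The study's methods state that both alleles of the clones were sequenced to check for indels with a frameshift or premature stop. The log2 fold change of LACTB was -1.87 (SE 0.68, edgeR quasi-likelihood adjusted p = 0.735, exact permutation p = 0.1 over clones), and -3.20 without clone B (adjusted p = 0.0157). Libraries held between 24153233 and 28406943 estimated counts. The microglial markers CSF1R (1383 to 2041 CPM), SPI1 (508 to 597 CPM) and CX3CR1 (526 to 1074 CPM) were high in every library, whereas TMEM119 stood between 0.32 and 1.87 CPM in all but 1. That library was differentiation 2 of WT clone J, called J2 hereafter (TMEM119 10.7 CPM), and it stood apart across the members. It was the highest of 12 for 8 of the 10, and for 9 of the 31 further complement genes that passed the filter. The genotype result of each member is therefore given with and without J2. Of the 16 microglia and macrophage markers all passed the filter, and their summed level was 8393 CPM in J2 against at most 6603 CPM in the 11 others. APOE was at 1818 CPM in J2 against at most 318 CPM elsewhere in WT and 243 CPM in LACTB KO. Other markers of the list went the other way, with CSF1R lowest of 12 in J2 (1383 CPM) and CX3CR1 ranked 11 (586 CPM). Stromal markers (20 listed, 17 tested, TCF21 at 3 counts or fewer throughout) summed to between 46.8 and 10785 CPM in WT and between 30.5 and 1195 CPM in LACTB KO, with differentiation 1 of clone J the highest. All 17 tested were lower in LACTB KO by the sign of the estimate (median log2 fold change -2.89). Of these, 13 had an unadjusted edgeR p under 0.05, and 0 had an adjusted p under 0.05. Of the 12 granulocyte and myeloid precursor markers, 7 had at most 3 counts in every library (MPO, ELANE, PRTN3, CTSG, CEACAM8, LTF and LCN2) and 2 passed the filter, CSF3R (79.3 to 141 CPM) and S100A12 (0.62 to 4.72 CPM), while AZU1 reached 1.49 CPM in J2. Transcripts of the hepatocyte list were present in all 12 libraries (summed level 198 to 340 CPM in WT and 250 to 301 CPM in LACTB KO, ALB 22.8 to 53.6 CPM), and the part of any other cell type in the complement levels was not tested. In bulk samples fewer cells of a type and less RNA per cell cannot be told apart.

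**Figure D1:**
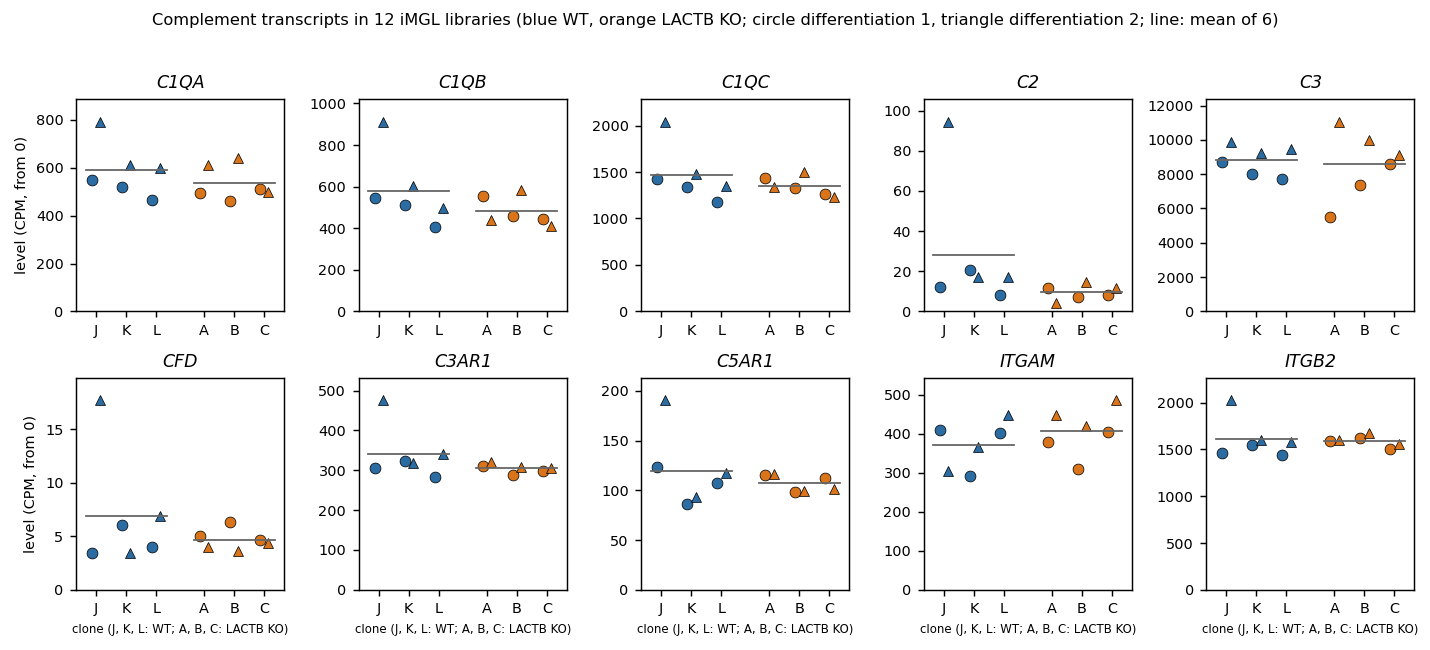
Each panel shows 1 gene, with its level in CPM on an axis that starts at 0, for the libraries of WT clones J, K and L (blue) and KO clones A, B and C (orange). Circles are differentiation 1, triangles differentiation 2 and lines the mean of 6 libraries. For 8 genes the highest point is the triangle of clone J, and C3 was highest (11042 CPM) and lowest (5486 CPM) in the 2 libraries of clone A.

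The members spanned a wide range of abundance. Compared per length (CPM per kb of the union of exons), C1QC (811 over 12 libraries) and C3 (753) were highest, and C1QB (228), ITGB2 (219) and C1QA (213) followed. C3AR1 (92.6), ITGAM (68.5) and C5AR1 (38.3) were intermediate, and CFD (3.20) and C2 (2.64) were low. Within these groups the ranges of neighbours overlapped: C1QC ranged from 681 to 1174 CPM per kb and C3 from 474 to 954, and C1QB, ITGB2 and C1QA had overlapping ranges. ITGAM (51.2 to 85.4) overlapped with both C3AR1 (81.0 to 136) and C5AR1 (29.2 to 64.3), which did not overlap with each other. The groups were apart, with C3 at 474 or above and C1QB at 391 or below, C1QA at 174 or above and C3AR1 at 136 or below, and C5AR1 at 29.2 or above and CFD at 9.74 or below. The first and last pairs exchanged places when the longest transcript was used instead, with C3 at 1667 and C1QC at 910 CPM per kb. C3 alone took between 0.548% and 1.08% of all counts of a library and ranked from 4 to 8 among all genes. The 10 members together took between 1.04% and 1.57%. At the other end, C2 rested on 106 to 2525 estimated counts per library and CFD on 92 to 474, so that counting error weighs more on these genes.

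**Figure D2:**
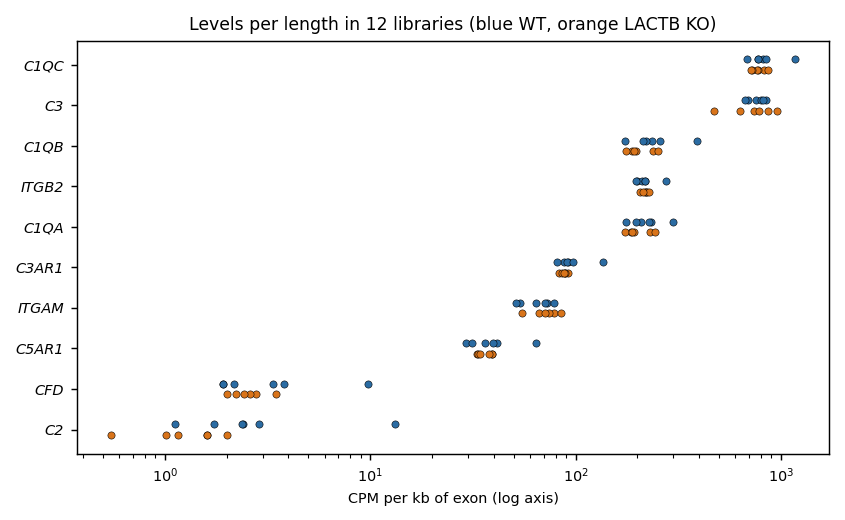
Points are the 12 libraries (blue WT, orange LACTB KO) on a log axis of CPM per kb of exon, genes in order of their mean. C1QC and C3 stand at the top, with means of 811 and 753 CPM per kb, and CFD and C2 at the bottom, with 3.20 and 2.64 CPM per kb.

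The question of the genotype comparison was whether complement transcripts differ between the LACTB KO and WT iMGLs. No member, and no gene, passed an adjusted p of 0.05 (edgeR quasi-likelihood test on counts summed per clone, 3 clones against 3, 17577 genes, 0% called). Of all genes tested, 1118 had an unadjusted p under 0.05, 141 of them higher and 977 lower in LACTB KO. Of the 17 stromal markers tested, 13 were among these 977. DESeq2 called 171 genes at an adjusted p of 0.05, 4 higher and 167 lower, none of them a member. Of the 10 members, 9 were lower by the sign of the estimate, with a median log2 fold change of -0.14 against 0.007 over all genes tested. Without J2, 6 were lower and 4 higher, and the median was -0.006. The clone means did not overlap for 1 member, C2, where 10.3% of all genes had such a separation in either direction.

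C2, the protease that joins C4b in the classical pathway, had the largest difference among the members. In WT, C2 was at 12.4 and 94.3 CPM in the 2 differentiations of clone J, 20.6 and 17.2 CPM in K, and 7.99 and 17.0 CPM in L. The KO libraries had 11.4 and 3.91 CPM for A, 7.22 and 14.4 CPM for B, and 8.29 and 11.4 CPM for C. J2 was 8.24 times the median of the 11 other libraries, and the libraries of the genotypes overlapped. The log2 fold change was -1.58 (SE 0.53, edgeR p = 0.0201, adjusted p = 0.726), and the exact permutation test over clones gave p = 0.1, the smallest that 3 clones against 3 allow. Without J2, which leaves clone J with differentiation 1 alone, the estimate was -0.62 (SE 0.22, edgeR adjusted p = 0.731). The clone means of log2 CPM still did not overlap then, with WT at 3.55 or above and LACTB KO at 3.36 or below. Without J as a whole it was -0.73, and in differentiation 1 and differentiation 2 alone it was -0.61 and -2.11. The annotated end of C2 overlaps the start of CFB on the same strand, so reads at that junction could be assigned to either gene.

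The C1q chains, whose products assemble into 1 recognition molecule, differed little between genotypes. C1QA ranged from 466 to 792 CPM in WT (median 575) and from 460 to 643 CPM in LACTB KO (median 505). C1QB ranged from 407 to 911 CPM in WT (median 530) and from 410 to 586 CPM in LACTB KO (median 452). C1QC ranged from 1182 to 2039 CPM in WT (median 1383) and from 1236 to 1498 CPM in LACTB KO (median 1335). The ranges overlapped for all 3 chains, and J2 was the highest library for each. The log2 fold changes were -0.13 (SE 0.10) for C1QA, -0.26 (SE 0.18) for C1QB and -0.11 (SE 0.13) for C1QC, with adjusted p between 0.878 and 0.895 (edgeR). Without J2 they were -0.02 (SE 0.07), -0.10 (SE 0.12) and -0.006 (SE 0.09).

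The ratio of C1QC to C1QB varied less than that of C1QA to C1QB. Over the 12 libraries the first ran from 3.00 to 4.09 per length and the second from 0.766 to 1.23. Per length, C1QC stood at 3.46 ± 0.30 times C1QB in WT (SD, n = 6 libraries of 3 clones) and at 3.79 ± 0.28 times in LACTB KO. C1QA stood at 0.92 ± 0.10 times C1QB in WT and at 0.99 ± 0.15 times in LACTB KO. Neither ratio separated the genotypes, with a log2 difference of 0.13 for C1QC to C1QB (exact permutation p = 0.2 over 3 against 3 clones) and 0.10 for C1QA to C1QB (exact permutation p = 0.4). Over the 12 libraries, which share depth and culture, log2 CPM of C1QB and C1QC had a Pearson r of 0.977 (0.943 without J2). C1QA was less close to C1QB (r = 0.801, 0.560 without J2) and to C1QC (r = 0.839, 0.648 without J2). The ratio of C1QA to C1QB was widest within clone A, at 0.787 in differentiation 1 and 1.23 in differentiation 2.

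C3, which is cleaved in both the classical and the alternative pathway, had 1 of the smallest genotype differences. It was at 8721 and 9849 CPM in the 2 differentiations of WT clone J, 8030 and 9261 CPM in K, and 7722 and 9476 CPM in L. The KO libraries had 5486 and 11042 CPM for A, 7354 and 10008 CPM for B, and 8583 and 9089 CPM for C. Both the lowest and the highest library were of clone A, and the groups overlapped. The log2 fold change was -0.02 (SE 0.09, edgeR adjusted p = 0.962). It was 0.12 (SE 0.13, adjusted p = 0.905) when the low library, differentiation 1 of clone A, was left out.

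CFD, the protease that activates factor B, was a low transcript in these cells. It lay between 3.49 and 17.7 CPM in WT (median 5.03) and between 3.67 and 6.35 CPM in LACTB KO (median 4.55). J2 was the highest, and the next WT library was at 6.90 CPM. The log2 fold change of -0.56 (SE 0.31, edgeR adjusted p = 0.878) became 0.05 (SE 0.19) without J2.

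The genotypes differed little in the anaphylatoxin receptors, whose highest library was J2. C3AR1, the receptor of C3a, ranged from 283 to 475 CPM in WT (median 320) and from 289 to 322 CPM in LACTB KO (median 308). C5AR1, the receptor of C5a, ranged from 86.7 to 190 CPM in WT (median 113) and from 98.1 to 116 CPM in LACTB KO (median 107). For both receptors the LACTB KO libraries lay within the WT range. The log2 fold changes were -0.15 (SE 0.10, edgeR adjusted p = 0.878) for C3AR1 and -0.15 (SE 0.19, edgeR adjusted p = 0.904) for C5AR1, and -0.02 (SE 0.06) and -0.007 (SE 0.12) without J2. Per length, C3AR1 stood at 2.496 ± 0.442 times C5AR1 in WT and 2.43 ± 0.16 times in LACTB KO (SD, n = 6 libraries each, log2 difference -0.02, exact permutation p = 0.9 over clones).

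ITGAM, the CD11b chain, was the only member with a positive genotype estimate, and J2 was among its lowest libraries. It ranged from 291 to 449 CPM in WT (median 385) and from 311 to 486 CPM in LACTB KO (median 413). ITGB2, the CD18 chain that ITGAM shares with other leukocyte integrins, ranged from 1440 to 2023 CPM in WT (median 1566) and from 1500 to 1671 CPM in LACTB KO (median 1598). The genotypes overlapped for both chains. The log2 fold changes were 0.15 (SE 0.12, edgeR adjusted p = 0.878) for ITGAM and -0.01 (SE 0.09, edgeR adjusted p = 0.983) for ITGB2, and both were 0.08 without J2 (SE 0.12 and 0.08). The ratio of ITGAM to ITGB2 per length was 0.302 ± 0.072 in WT and 0.330 ± 0.053 in LACTB KO (SD, n = 6 libraries each, log2 difference 0.15, exact permutation p = 0.5). It was lowest in J2, at 0.193, since ITGB2 was high and ITGAM low in that library.

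**Figure D3:**
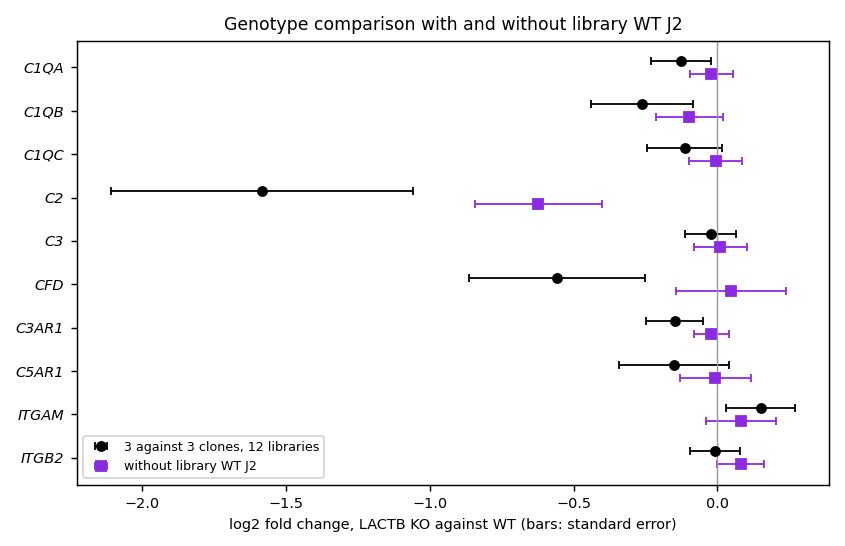
Points are log2 fold changes of LACTB KO against WT from edgeR with bars of 1 standard error, from all libraries (black circles) and without library J2 (violet squares). C2 moves from -1.58 to -0.62 and CFD from -0.56 to 0.05, and the other 8 members lie between -0.26 and 0.15 in both fits.

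Differentiation 2 was compared with differentiation 1 within each clone, which asks whether a transcript shifted in a common direction over the clones. A gene that varied within clones without a common direction is not called by such a test. No gene passed an adjusted p of 0.05 (edgeR quasi-likelihood test on 12 libraries with clone as a fixed effect, 15530 genes, 0% called, 1546 with an unadjusted p under 0.05). DESeq2 called 299 genes, C1QA among them (adjusted p = 0.0130). All 10 members had a positive estimate, with a median log2 fold change of 0.17 against -0.003 over all genes, and 9 of 10 without clone J (median 0.10). C3 and ITGB2, 2 of the 10 members, were higher in differentiation 2 in all 6 clones, where 6.09% of all genes moved in 1 direction in all 6.

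C3 had the larger difference of these. It was higher in differentiation 2 by 0.18, 0.21 and 0.30 on the log2 CPM scale in WT clones J, K and L, and by 1.01, 0.44 and 0.08 in KO clones A, B and C. The log2 fold change was 0.37 (SE 0.12, edgeR p = 0.0164, adjusted p = 0.378), and the exact sign-flip permutation test over 6 clones gave p = 0.03125, the smallest it can give. It was 0.25 without clone A (edgeR adjusted p = 0.295). ITGB2 was higher by between 0.005 and 0.47 (log2 fold change 0.13, SE 0.08, edgeR adjusted p = 0.656), the largest step being that of clone J.

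C1QA had the smallest p of the members in this comparison. It was higher in differentiation 2 in 5 of 6 clones, by 0.24 to 0.53 on the log2 CPM scale, and lower by 0.03 in clone C. The log2 fold change was 0.32 (SE 0.08, edgeR p = 0.00444, adjusted p = 0.282), and the exact sign-flip permutation test gave p = 0.0625. C1QB and C1QC were higher in differentiation 2 in 4 of 6 clones each, with log2 fold changes of 0.19 (SE 0.13) and 0.15 (SE 0.09) and adjusted p of 0.688 and 0.637 (edgeR). C3AR1, C5AR1 and ITGAM were higher in 5 of 6 clones, with log2 fold changes of 0.18 (SE 0.09), 0.12 (SE 0.10) and 0.17 (SE 0.11). The exception was clone J for ITGAM (-0.44), clone K for C3AR1 (-0.02) and clone C for C5AR1 (-0.16). C2 and CFD had no common direction: C2 differed by between -1.53 and 2.92 and CFD by between -0.80 and 2.32, the highest value being clone J for both.

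**Figure D4:**
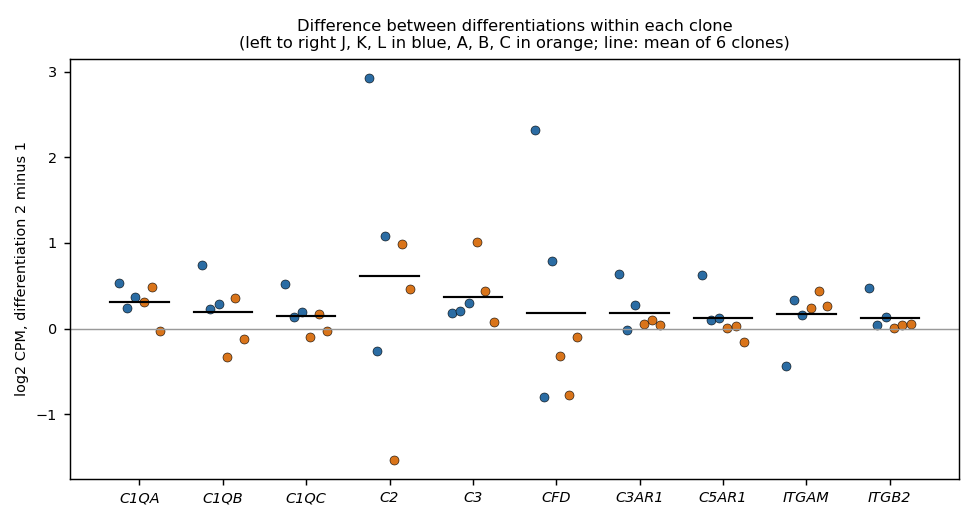
Points are the difference in log2 CPM between differentiation 2 and differentiation 1 of each clone (blue J, K and L, orange A, B and C) and lines the mean of 6 clones. All 6 points of C3 and ITGB2 lie above 0, and clone J stands highest for C2 (2.92) and CFD (2.32).

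No interaction of genotype with differentiation was called for any gene (edgeR, 15530 genes, 0% called, 141 with an unadjusted p under 0.05, and 0 called by DESeq2). Among the members, C1QB and C5AR1 had the smallest p, with log2 differences of -0.45 (SE 0.22) and -0.33 (SE 0.17), each with an edgeR adjusted p = 0.999. C1QB was higher in differentiation 2 in all 3 WT clones (by 0.23 to 0.74 on the log2 CPM scale) and in 1 of 3 LACTB KO clones. Spread differed between members: over the 12 libraries, the SD of log2 CPM was 0.13 for ITGB2, between 0.19 and 0.32 for C1QA, C1QB, C1QC, C3, C3AR1, C5AR1 and ITGAM, 0.65 for CFD and 1.11 for C2. The SD of C2 exceeded that of 96.1% of the 15530 genes and that of ITGB2 exceeded 16.7%.

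The wider complement system was described with 50 further genes, grouped by role, of which 31 passed the filter between clones. None of them passed an adjusted p of 0.05 with edgeR in a comparison, and with DESeq2 CD59 and CD46 did between differentiations (adjusted p = 0.000371 and 0.0317). Between genotypes 12 were higher and 19 lower by the sign of the estimate, with a median log2 fold change of -0.09, and 3 had an unadjusted p under 0.05 (C1S, COLEC12 and CR1, all lower), against 1118 of 17577 over all genes. Without J2 there were 2, C1S and CLU, also lower. The clone means of 6 of the 31 did not overlap, 4 lower and 2 higher. Genes with at most 3 counts in every library were 13, among them C6, C7, C8B and C9 of the membrane attack complex, the receptor CR2 and the ficolins FCN2 and FCN3.

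Upstream of C3, the classical proteases C1R and C1S were low. C1S was at 8.65 CPM in differentiation 1 of clone J and between 0.23 and 1.94 CPM in the other 11 libraries (log2 fold change -1.95, SE 0.80, edgeR adjusted p = 0.764, and -0.46 without clone J). C1R was at 2.66 CPM in the same library and between 0.60 and 1.62 CPM elsewhere (-0.44, SE 0.26, adjusted p = 0.878). That library also had the highest summed level of stromal markers (10785 CPM), and over the 12 libraries log2 CPM of C1S and C1R had r of 0.772 and 0.629 with the stromal list. C1S had values of like size with the endothelial (0.765), mast cell and basophil (-0.763) and hepatocyte (-0.748) lists, and C1R had 0.538 with the endothelial list. The members ranged from -0.224 (CFD) to 0.484 (C1QB) with the stromal list, and from -0.677 (CFD) to 0.627 (C1QB) without J2. With the stromal level as covariate (limma voom), the genotype estimate of C1R changed sign. The share of C1R and C1S RNA that came from stromal cells was not tested. C4A (5.35 to 8.70 CPM) and C4B (3.30 to 6.72 CPM) are near-identical copies between which reads may be split, so their single values are uncertain. In the lectin pathway, COLEC12, a scavenger receptor of the collectin family, was in J2 at 8.62 times the median of the 11 other libraries, which ranged from 0.746 to 3.59 CPM (log2 fold change -1.56, SE 0.65, edgeR adjusted p = 0.776), and -0.44 without J2. MASP1 (-1.29, SE 0.85, adjusted p = 0.878, and 0.38 without clone J) was at 3.72 CPM in differentiation 1 of clone J and at most 0.64 CPM elsewhere, and MBL2 (0.48, SE 0.28, adjusted p = 0.878) rested on 5 to 15 counts.

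In the alternative pathway, CFP (properdin, which stabilizes the C3 convertase) was lowest in both libraries of clone J, at 4.21 and 1.83 CPM, and between 7.16 and 19.8 CPM in the other 10 (log2 fold change 0.41, SE 0.49, edgeR adjusted p = 0.901). CFB, the partner of CFD, stayed between 1.82 and 3.06 CPM (-0.07, SE 0.20, adjusted p = 0.948). C5, the substrate of the C5 convertase, was the only terminal component that passed the filter (5.23 to 10.5 CPM, 0.19, SE 0.22, adjusted p = 0.895).

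Among the further receptors, VSIG4, the macrophage receptor of C3b, was at 978 CPM in J2 and between 178 and 313 CPM in the other 11 libraries. Its log2 fold change was -0.77 (SE 0.38, edgeR adjusted p = 0.848) and -0.26 without J2. CR1, complement receptor 1, was at 12.96 CPM in J2 and at 1.10 CPM or below elsewhere, and its estimate of -3.24 (SE 1.04, edgeR adjusted p = 0.726) became -0.83 (SE 0.47, adjusted p = 0.844) without J2. ITGAL, the CD11a partner of ITGB2, had a log2 fold change of 0.04 (SE 0.07, 215 to 376 CPM), and ITGAD (-1.01, SE 0.88, and -0.38 without J2) rested on 31 counts or fewer. Of the regulators, CLU (clusterin) was at 69.1 CPM in differentiation 1 of clone J and between 4.10 and 15.6 CPM elsewhere (-1.86, SE 0.80, edgeR adjusted p = 0.789). Without clone J the estimate of CLU was -0.24, and without J2 alone it was -2.44. C4BPB (-0.52, SE 0.26, adjusted p = 0.864) had at most 20 counts. Between differentiations, the membrane regulators CD59 and CD46 were higher in differentiation 2 in all 6 clones, with log2 fold changes of 0.29 (SE 0.06, edgeR adjusted p = 0.201) and 0.24 (SE 0.06, adjusted p = 0.278). They were 2 of the 31 further genes that passed the filter, where 6.09% of all genes moved in 1 direction in all 6 clones. FCN1 (1.48, SE 0.56, adjusted p = 0.431) had the only other unadjusted p under 0.05, on 2 to 46 counts.

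**Figure D5:**
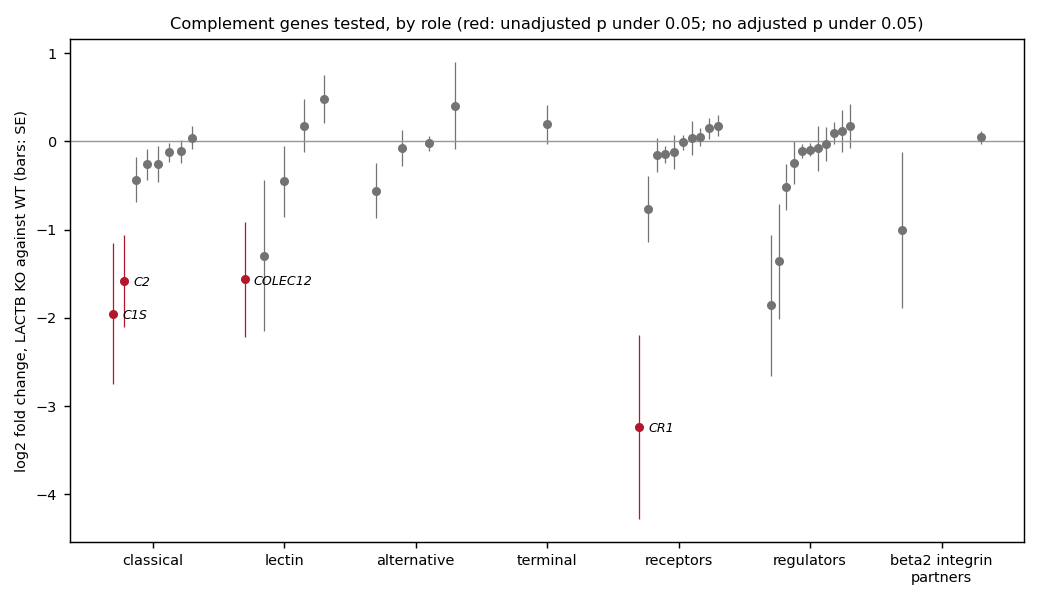
Points are log2 fold changes of LACTB KO against WT with bars of 1 standard error for the 41 complement genes tested, grouped by role. The genes in red (C1S, C2, COLEC12 and CR1) had an unadjusted p under 0.05 and lie between -3.24 and -1.56, and no gene had an adjusted p under 0.05.

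The genes outside the members whose log2 CPM was most like that of each member were ranked by Pearson r over the 12 libraries among 15530 genes, as a description of libraries that share depth and culture. For C1QB they were SAMSN1 (0.976), OAT (0.965) and GAS7 (0.951), and for C1QC they were OAT (0.983), CTSC (0.969) and PLOD3 (0.960). For C1QA they were SIAE (0.957), MAP3K5-AS2 (0.952) and CLTC (0.943), and antisense transcripts such as MAP3K5-AS2 and WWP1-AS1 are uncertain because the kit does not mark strand. C2 was nearest to FOLR2 (0.981), TRDN (0.976) and EYA2 (0.972). C3 was nearest to ENSG00000276980 (0.951) and to KIF20A (0.941) and NEK2 (0.933), which act in mitosis, and these values hardly changed without J2 (0.948, 0.938 and 0.931). C3AR1 was nearest to ARL6IP1 (0.983), CALM3 (0.981) and SUSD1 (0.973), and C5AR1 to RETSAT (0.959), TMEM273 (0.957) and WWP1-AS1 (0.930, and 0.736 without J2). ITGAM was nearest to PPP1R12B (0.931), RUFY3 (0.928) and HAAO (0.918), and ITGB2 to CTSC (0.938), SNX12 (0.930) and SYS1 (0.923). CFD was nearest to TOR3A (0.929), LGMN (0.922) and ADCY3 (0.912), which dropped to 0.784, 0.659 and 0.662 without J2. Of the member pairs, C3AR1 and C5AR1 had r = 0.793 with J2 and 0.037 without it, and ITGAM and ITGB2 had r = -0.430 and -0.090.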

How the data were processed

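Bulk polyA RNA-seq was analysed for 12 libraries of WTC11 iMGLs (3 WT and 3 LACTB KO clones, 2 differentiations each). Per the study's methods, the authors prepared libraries with a TruSeq kit that does not mark strand, sequenced from both ends, trimmed adapters with Cutadapt and aligned to hg38 with STAR. The authors deposited an estimated count for each gene and library, with no normalization. The counting tool is not given in the sources used here, nor are the annotation and strand setting. The sample labels give days 24 and 27 for the added factors and collection, and the study's methods place both 1 day later. Per library, 10.78% to 11.54% of values were fractional. Values were rounded to integers and, for the genotype comparison, summed per clone. Genes were tested with edgeR 4.0.16 in R 4.3.3 (TMM, filterByExpr, quasi-likelihood test, Benjamini-Hochberg over all tested genes, threshold 0.05). Levels are CPM with TMM factors, or log2 CPM with a prior count of 2, and log2 fold changes come from the edgeR fits. Gene coordinates and lengths were those of GENCODE version 44 (62639 of 62703 identifiers found), and promoter windows those of RefSeq. The members and the gene lists were chosen with earlier results of these data known. Named genes are LACTB, the 10 members, the 3 genes with the smallest genotype p in each role of the wider list (fewer where fewer passed the filter), the 3 genes nearest to each member, and single markers. A gene that the rule names is not reported here. C4A, C4B, CD46, CD59 and FCN1 were named after their values were seen. The labels call the samples separate clones and differentiations, and libraries of 1 clone are not independent. The differentiation number pairs libraries because each sample's batch label names it, and across 15530 genes the mean difference between differentiations had r = 0.222 in WT and LACTB KO. Alternatives used DESeq2 1.42.0 and limma 3.58.1. Fits without library J2 or without differentiation 1 of clone A were chosen after seeing the data. The test steps were run on simulated data drawn without differences between clones. These runs therefore do not test the spread between clones that limits the genotype comparison.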

Additional observations from a re-analysis of the deposited data

Results flagged for a closer look

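For each member and genotype, the gap between the highest or lowest of the 6 libraries and its neighbour was compared with the whole range of the group. In 6 of 20 such groups 1 library lay beyond Dixon's 95% limit for 6 values, and chance alone flags about 1 in 20 groups. In each case it was J2, the second differentiation of WT clone J, standing above the 5 other WT libraries: C1QC at 2039 CPM (gap 0.660 of the range), C2 at 94.3 CPM (0.854), C3AR1 at 475 CPM (0.697), C5AR1 at 190 CPM (0.647), ITGB2 at 2023 CPM (0.729) and CFD at 17.7 CPM (0.760). The 6 flags come from 1 library and are not independent of each other. These gaps were taken on CPM, and the 6 flags were not tested on log2 CPM, where a high library stands out less. Over 15530 genes the same limit was applied on log2 CPM, so the counts are of another scale. There J2 was isolated above the other WT libraries in 239 genes and below them in 174. The 11 other libraries had 25 to 75 and 43 to 134 such genes within their own groups. J2 also had the highest summed level of microglia and macrophage markers (8393 CPM), with a total of 28406943 estimated counts, the highest of 12. The markers did not move together: APOE (1818 CPM) and CD68 (1372 CPM) were highest in J2, and CSF1R (1383 CPM) was lowest. The part of these differences in the complement values was not tested.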

How the results depend on the processing

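The genotype comparison is limited by 3 clones per genotype and by 1 WT library that stands apart (J2). It is also limited by the LACTB RNA left in clone B and by stromal markers, lower in LACTB KO for all 17 tested. The number of genes called between genotypes was 0 in the comparison reported, 171 with DESeq2, 2 without an expression filter, and 0 to 1 with a clone left out. Between differentiations it was 0 as reported, 299 with DESeq2, 80 without an expression filter, 10 in the LACTB KO clones alone, 1 with the stromal level as covariate, and 0 to 48 with a clone left out, 48 being without WT clone J. Without the replicate block of clone it was 2. With the differentiation as replicate block over 12 libraries, 0 genes were called between genotypes and C2 had a log2 fold change of -1.36. No interaction was called in any alternative run.

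The tested fold changes kept their direction and side of the threshold in 372 of 397 values between genotypes, 162 of 169 between differentiations and 89 of 90 for the interaction. No gene passed in the comparisons reported, so the side could change only by a gene coming to pass. Values of the same sign counted as kept whatever their size. Between genotypes, C2 went from -1.58 to -0.609 in differentiation 1 alone and CR1 from -3.24 to -0.825 without J2. CR1 in DESeq2, which had no p, also counted as kept. With the threshold crossed were LACTB without clone B (-3.20) and, with DESeq2 between differentiations, C1QA (0.316), CD46 (0.240) and CD59 (0.293). The other exceptions changed sign, and the cause was not tested. Between genotypes, differentiation 1 alone gave 0.027 for C1QC, 0.040 for C5AR1, -0.013 for ITGAM, 0.084 for ITGB2, 0.245 for CFD and -0.152 for ITGAL. Differentiation 2 alone gave 0.073 for C3 and 0.101 for C1R. With clones left out in turn, C1QC ranged from -0.209 to 0.013, C3 from -0.0437 to 0.0049, C5AR1 from -0.317 to 0.083, ITGB2 from -0.0517 to 0.043, MASP1 from -1.74 to 0.376, CFP from -0.019 to 0.687, CFB from -0.218 to 0.046 and ITGAD from -1.49 to 0.502, and the change of sign came without clone J, except for CFB (without K). Without J2, C3 was 0.0097, ITGB2 0.080, CFD 0.047 and CFB 0.020, and without differentiation 1 of clone A, C3 was 0.117. ITGB2 was also 0.022 without clone C and 0.0042 without a filter, and C1R 0.043 with the stromal level as covariate. Between differentiations, the LACTB KO clones alone gave -0.021 for C1QB, -0.031 for C5AR1 and -0.394 for CFD, and CFD ranged from -0.239 (without J) to 0.354. The interaction of C1QA ranged from -0.241 to 0.031 (without C), and the log2 ratio of C3AR1 to C5AR1 from -0.136 to 0.125 (without K), with 0.010 without A.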
